A study of Mus musculus with 5 samples.

Results

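The nuclear factor I (NFI) genes Nfia, Nfib, Nfic and Nfix were described together with Zbtb20, Bcl11a and Prox1, transcription factors of hippocampal and cortical neuron maturation, in medial and lateral cortex of the mouse embryo. The 7 genes were taken by their symbols from the deposited counts, out of 34590 symbols. All 7 had at least 89 reads in every library and were among the 16229 genes that passed the filter on low counts. The tissue was dissected from brains of wildtype embryos of a mixed strain background at E14.5, with no treatment, and polyadenylated RNA was sequenced from 3 medial and 2 lateral libraries. The design of the study compares these regions with each other. Nothing in the labels says whether the libraries came from separate embryos, so every p-value below reflects no more than the spread of these samples, which may be technical.

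NFI proteins bind DNA as dimers at palindromic sites and act in radial glia, the progenitors of the cortex, where they promote the passage from self-renewal to neuronal and glial differentiation. Mice that lack Nfia, Nfib or Nfix have a delayed hippocampus and dentate gyrus. Zbtb20 is a repressor with BTB and zinc-finger domains that marks the hippocampal primordium and limits neocortical genes in its pyramidal neurons. Bcl11a, also called Ctip1, is a zinc-finger repressor of neocortical projection neurons and acts in their migration and areal identity. Prox1 is a homeodomain factor that marks granule neurons of the dentate gyrus, and it is also present in GABAergic interneurons, diencephalon and lymphatic endothelium.

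The promoters of Prox1, Zbtb20 and Bcl11a are shown because the first pair had higher means in medial cortex and Bcl11a in lateral cortex. RefSeq windows on GRCm38.p6 were matched by symbol for 6 of the 7 genes, and the member with no entry was Nfib. The counts were made on mm9, so these positions belong to the RefSeq table and not to the counts. The Prox1 run covers chr1:190170828-190171077 on the minus strand, the Zbtb20 run chr16:43247034-43247283 on the plus strand and the Bcl11a run chr11:24080445-24080669 on the plus strand. Each run ends just before an annotated start, and 25 bases of the Bcl11a window that GENCODE M21 annotates as exon were left off. Each is written 5′ to 3′, and capitals mark the matches to the motifs named below.
Prox1: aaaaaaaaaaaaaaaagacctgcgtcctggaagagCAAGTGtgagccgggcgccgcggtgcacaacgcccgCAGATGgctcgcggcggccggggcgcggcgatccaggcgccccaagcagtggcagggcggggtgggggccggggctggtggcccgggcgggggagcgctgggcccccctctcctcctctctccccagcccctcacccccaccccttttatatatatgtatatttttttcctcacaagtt
Zbtb20: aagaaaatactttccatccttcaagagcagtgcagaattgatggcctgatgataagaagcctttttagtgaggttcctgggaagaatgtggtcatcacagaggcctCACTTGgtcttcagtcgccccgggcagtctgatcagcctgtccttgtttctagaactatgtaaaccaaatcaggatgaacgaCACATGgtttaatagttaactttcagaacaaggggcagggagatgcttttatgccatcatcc
Bcl11a: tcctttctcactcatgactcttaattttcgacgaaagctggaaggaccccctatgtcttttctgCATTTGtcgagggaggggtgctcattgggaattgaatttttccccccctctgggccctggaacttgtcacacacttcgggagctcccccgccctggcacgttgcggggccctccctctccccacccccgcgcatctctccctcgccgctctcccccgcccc

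Both strands of the 250 bases before each start were searched for the NFI core TTGGC, the TCF/LEF motifs CTTTGA and CTTTGT and the E-box CANNTG, which proneural factors bind. In these windows the capitals are E-boxes alone, with 2 matches for Prox1, 2 for Zbtb20 and 1 for Bcl11a, and no match overlapped another. An E-box was present in 66.2% of 32851 mouse windows of this length, so its presence does not set these promoters apart. TTGGC, present in 41.5% of all windows, was not among the letters of any of the 3. The TCF/LEF motifs, in 13.8% and 16.5% of all windows, were not in these 3 windows either. Prox1 has a further RefSeq window, not shown, which held 1 CTTTGT and no E-box. Among the 10 windows of the 6 genes TTGGC was found in 2, both of Nfix. For Nfic the window held 1 CTTTGA and 1 E-box. CTTTGA was also in the Nfia window, and CTTTGT in a window of Nfix.

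Gene counts ranged from 27406370 to 36460274 reads in medial and from 56147129 to 66981952 reads in lateral libraries, so depth differed with region. Levels are given in CPM, the count scaled to the library's size after TMM scaling, as mean ± SD over libraries. Medial library 1 stood apart for genes of the medial edge: Wnt8b, a ligand of the cortical hem, had 117 CPM there, 30.5 and 22.1 CPM in medial libraries 2 and 3 and at most 0.213 CPM in a lateral one. The members' fold changes that moved with this library are given with and without it. The pallial gene Emx1, between 68.4 and 116 CPM, was present in every library. In 1577 of 16229 genes (9.72%) the regions differed at an adjusted p under 0.05, with 4.62% higher and 5.1% lower in medial cortex, by edgeR's quasi-likelihood test with Benjamini-Hochberg adjustment over all genes.

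Prox1, Zbtb20, Nfic and Nfix were higher in medial cortex, and none of the 7 genes was called lower. Prox1 differed most, 19.8-fold, followed by Zbtb20 at 3.58-fold, Nfic at 1.78-fold and Nfix at 1.44-fold. Nfia, Nfib and Bcl11a did not pass. The 4 calls of 7 (57.1%) stand against 9.72% of all genes tested, and the median log2 fold change of the 7 was 0.53 against 0.012 over all genes. The members were chosen with earlier results of these data known, so this contrast is a description. Medial and lateral values were separate for 6 of the 7 genes, as they were for 53.3% of all genes tested. In bulk tissue, more cells of a type and more RNA per cell cannot be told apart.

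**Figure D1:**
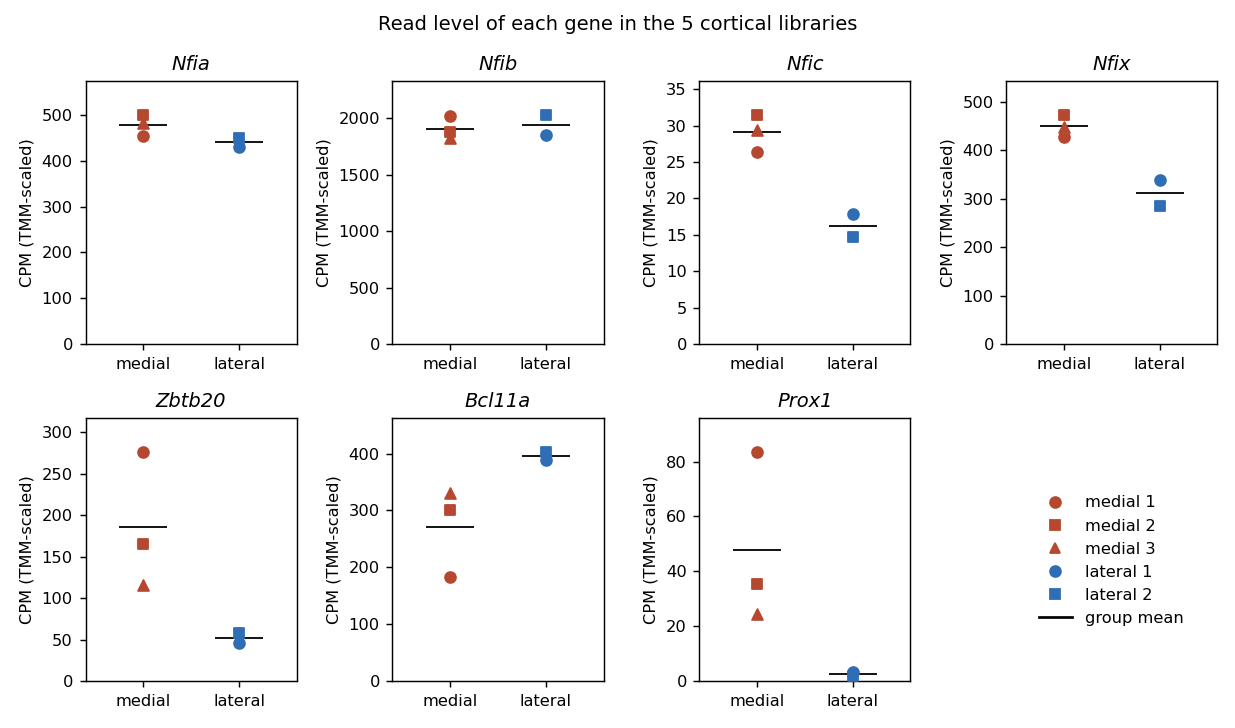
Level of each of the 7 genes in CPM, on linear axes from 0, in 3 medial and 2 lateral libraries, with a symbol per library and a bar at the group mean. Medial library 1 is the highest for Zbtb20 and Prox1 and the lowest for Bcl11a, while Nfib overlaps between regions.

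These calls rested on few libraries. In edgeR 0 of the 7 genes passed without medial library 2, without lateral library 1 or without lateral library 2. Over all genes those fits gave 0, 18 and 0 calls, and 4035, 4050 and 2456 genes had an unadjusted p below 0.05. DESeq2 in the same fits called 3, 4 and 2 of the 7. Of the 15 gene lists used below, 14 had 0 calls in all 3 of those edgeR fits, and the hippocampal list had 3, in the fit without lateral library 1. Without medial library 3, Prox1 and Zbtb20 passed in edgeR, and without medial library 1 the same 4 genes passed as with it.

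**Figure D2:**
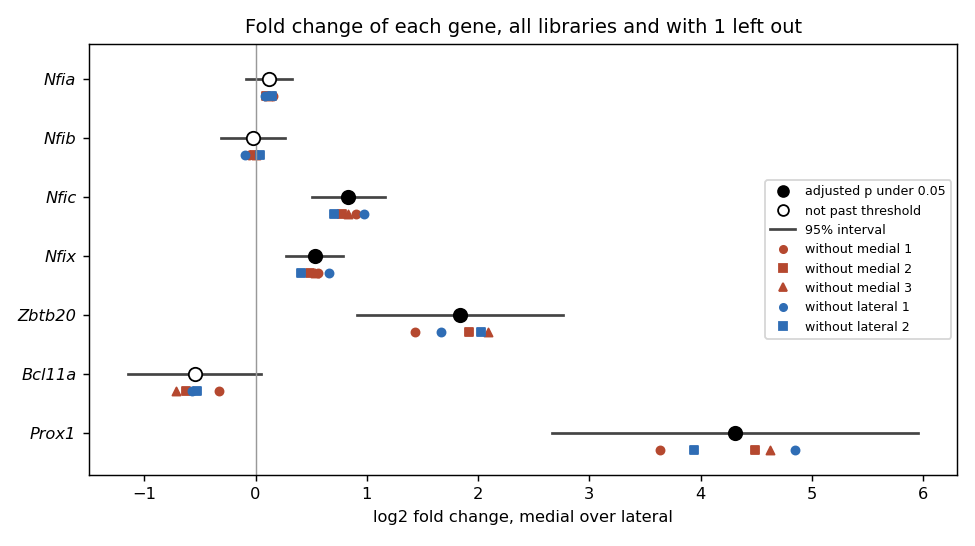
Log2 fold change of each gene, medial over lateral, with its 95% interval as a line (filled circle: adjusted p under 0.05 in edgeR; open: not past it), and below each line the value with each library left out. Prox1 moves between 3.63 and 4.84, while the values of Nfib lie on both sides of 0.

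Nfib was the most abundant of the NFI genes and overlapped between the regions. It had 2016, 1880 and 1827 CPM in medial libraries 1 to 3 and 1851 and 2024 CPM in lateral libraries 1 and 2. The lateral values lay within the medial range or just above it. The log2 fold change was −0.023 (SE 0.12, adjusted p = 0.917 in edgeR), with a 95% interval from −0.31 to 0.26, and its sign changed with upper-quartile scaling (0.0037) and with library size alone (0.051).

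Nfia, which acts early in the switch to gliogenesis, had 455, 499 and 482 CPM in medial and 430 and 450 CPM in lateral libraries. Every medial library lay above both lateral ones, by a narrow margin. The log2 fold change was 0.12 (SE 0.083, adjusted p = 0.363 in edgeR), with an interval from −0.083 to 0.32. A difference larger than that upper bound, 0.32 on the log2 scale, lies outside the interval.

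Nfix, which promotes differentiation of radial glia into intermediate progenitors, was higher in medial cortex. It had 428, 472 and 447 CPM in medial and 338 and 284 CPM in lateral libraries. All medial values were above both lateral ones, and the medial libraries differed from each other by no more than 1.10-fold. The means were 449 ± 22.0 (SD, n = 3) and 311 ± 37.9 (SD, n = 2), 0.53 apart on the log2 scale (SE 0.11, adjusted p = 0.0399 in edgeR).

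Nfic, known best for its role in tooth root formation, was the least abundant of the family and had the largest fold change in it. It had 26.4, 31.4 and 29.4 CPM in medial and 17.8 and 14.7 CPM in lateral libraries, from between 761 and 1172 reads. The groups did not overlap. The log2 fold change was 0.83 (SE 0.13, adjusted p = 0.0316 in edgeR). Without medial library 1 it was 0.90 for Nfic (adjusted p = 0.0205 in edgeR) and 0.56 for Nfix (adjusted p = 0.0304).

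The 4 genes together held 2925, 2882 and 2785 CPM in medial and 2636 and 2773 CPM in lateral libraries, so the summed NFI level was higher in every medial library by a small margin. Their shares were compared as well, with no test of makeup against sum. By exact permutation test, p was 0.2 for the sum and for the Nfib share. It was 0.1 for the Nfix and Nfic shares and 0.4 for the Nfia share, by the same test. Nfib made up 68.9%, 65.2% and 65.6% of NFI reads in medial libraries and 70.2% and 73.0% in lateral ones. Nfix made up 14.6%, 16.4% and 16.1% against 12.8% and 10.2%, without overlap. The Nfic share was 1.02% ± 0.0994 (SD, n = 3) against 0.604% ± 0.102 (SD, n = 2), also without overlap, and the Nfia share was 16.7% ± 1.02 (SD, n = 3) against 16.3% ± 0.0600 (SD, n = 2).

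**Figure D3:**
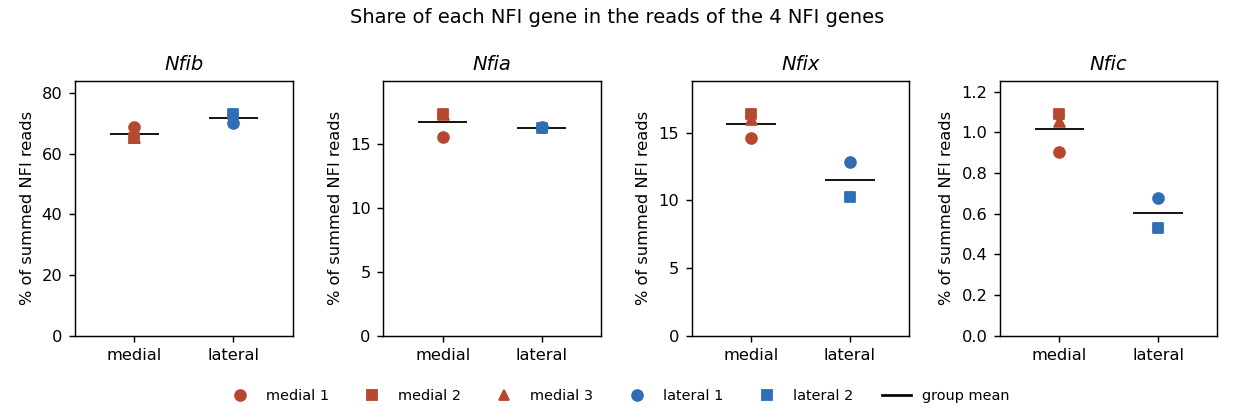
Share of each NFI gene in the reads of the 4 NFI genes of a library, in percent on axes from 0, by region, with the group mean as a bar. The Nfix and Nfic shares are higher in all 3 medial libraries than in both lateral ones, and the Nfib share is lower.

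A ratio between genes of a library does not depend on how libraries are scaled. The Nfix reads per Nfia read, on the log2 scale, were −0.088, −0.080 and −0.11 in medial and −0.35 and −0.66 in lateral libraries, a difference of means of 0.41. Against Nfib the difference was 0.56 for Nfix, 0.14 for Nfia and 0.86 for Nfic. With 10 possible assignments of 3 against 2 libraries, the smallest two-sided p of the exact permutation test is 0.1, which Nfix over Nfia, Nfix over Nfib and Nfic over Nfib reached. Nfia over Nfib had an exact p of 0.3. Adjusted over the 12 ratios and shares computed, these were 0.15 and 0.327 by the same exact test, so the design could not place any of them past 0.05.

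Zbtb20 was 3.58-fold higher in medial cortex and varied widely among its libraries. It had 276, 165 and 116 CPM in medial libraries 1 to 3 and 45.4 and 58.4 CPM in lateral libraries 1 and 2. Even the lowest medial value was well above the lateral ones, and medial library 1 held 2.38 times the level of medial library 3. The means were 186 ± 82.2 (SD, n = 3) and 51.9 ± 9.18 (SD, n = 2), 1.84 apart on the log2 scale (SE 0.38, adjusted p = 0.0422 in edgeR). Without medial library 1 the log2 fold change was 1.44 (SE 0.20, adjusted p = 0.0203 in edgeR).

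Prox1 was the gene with the strongest contrast. It had 83.4, 35.3 and 24.5 CPM in medial libraries, from 2405, 1010 and 882 reads, and 3.10 and 1.65 CPM in lateral ones, from 204 and 89 reads. The groups were far apart, and within medial cortex library 1 stood 3.40-fold above library 3. The log2 fold change was 4.31 (SE 0.67, adjusted p = 0.0316 in edgeR), with a 95% interval from 2.67 to 5.95, and 0.283% of all genes tested had a larger absolute value. Without medial library 1 it fell to 3.63 (SE 0.33, adjusted p = 0.0114 in edgeR), a fold more than 1.5 times smaller.

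Bcl11a pointed the other way without passing the test of the main design. It had 182, 301 and 331 CPM in medial libraries and 389 and 403 CPM in lateral ones. All medial values lay below both lateral ones, which differed from each other by 1.04-fold, while medial library 1 lay far below the other medial libraries. The log2 fold change was −0.55 (SE 0.24, adjusted p = 0.184 in edgeR), with an interval from −1.14 to 0.051. Without medial library 1 it was −0.33 (SE 0.083, adjusted p = 0.0577 in edgeR and 0.0190 in DESeq2). A fit with a tag that libraries share in their deposited names as a block gave −0.33 for Bcl11a as well, and there it passed (adjusted p = 0.00468 in edgeR). The labels do not say what that tag stands for. With the replicate number as a block the log2 fold change of Bcl11a was −0.76, which did not pass (adjusted p = 0.104 in edgeR).

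Zbtb20 and Bcl11a ran in opposite order across the medial libraries, while both were somewhat higher in lateral library 2 than in lateral library 1. There were 1.52, 0.549 and 0.351 reads of Zbtb20 per read of Bcl11a in medial and 0.117 and 0.145 in lateral libraries. Medial library 1 was the only library with more reads of Zbtb20 than of Bcl11a. On the log2 scale the difference of means was 2.35 for Zbtb20 over Bcl11a, 4.79 for Prox1 over Bcl11a and 2.44 for Prox1 over Zbtb20, each at an exact permutation p of 0.1, the smallest that 3 against 2 libraries allow. Without medial library 1 these differences were 1.75, 4.03 and 2.28, with no test, in an alternative chosen after seeing the data. In the 4 NFI genes the medial libraries differed by between 1.10-fold and 1.19-fold, against 1.82-fold for Bcl11a, 2.38-fold for Zbtb20 and 3.40-fold for Prox1.

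Levels of different genes were compared per kilobase of merged exons in GENCODE M21, whose build differs from that of the counts. In medial cortex Nfib had 128 ± 6.52 CPM per kilobase (SD, n = 3), Nfix 61.1 ± 2.99, Nfia 43.9 ± 2.04 and Bcl11a 20.6 ± 5.96. Zbtb20 at 6.04 ± 2.68, Prox1 at 5.69 ± 3.74 and Nfic at 4.38 ± 0.379 CPM per kilobase did not differ beyond their spread. In lateral cortex Nfib came first at 130 ± 8.20 CPM per kilobase (SD, n = 2), and Nfix at 42.3 ± 5.16 overlapped with Nfia at 40.4 ± 1.30 CPM per kilobase. Bcl11a followed at 30.0 ± 0.743, Nfic at 2.46 ± 0.328, Zbtb20 at 1.69 ± 0.299 and Prox1 at 0.283 ± 0.122 CPM per kilobase. Prox1 thus took the last place in lateral cortex. The library protocol does not mark strand. At most 2.4% of the exon bases of a member overlap an exon of another gene in GENCODE M21, the largest share being that of 4930538E20Rik with Bcl11a.

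Markers of cell types moved with the regions. Summed over the 11 tested genes, postmitotic neuron genes came to between 1951 and 2662 CPM in medial and between 3344 and 4352 CPM in lateral libraries. Of these 11, 5 were lower in medial cortex and 0 higher, among them Syt1 (log2 fold change −1.57), Rbfox3 (−0.55), Dcx (−0.92) and Snap25 (−1.07), with a median of −0.88; without medial library 3 it was 1 gene. Summed radial glia genes came to between 3469 and 4212 CPM in medial and between 2390 and 2797 CPM in lateral libraries. Of 10, Nes (0.62) and Notch1 (0.69) were higher and 0 lower, with a median of 0.59; without medial library 3 it was 0. Intermediate progenitor genes gave 0 calls of 8, where 9.72% of all genes were called, with Eomes at a log2 fold change of −0.11 and Neurog2 at 0.043. Insm1 (−0.79, adjusted p = 0.0544 in edgeR), Sstr2 (−0.65, adjusted p = 0.0565) and Btg2 (0.43, adjusted p = 0.0710) did not overlap between regions. These were 3 of the 8, and 53.3% of all genes tested did not overlap either. Without medial library 3 the counts on this list were 2 lower and 0 higher, and without medial library 1 they were 1 and 1.

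Set against these sums, in a comparison chosen after the values were seen, several members changed their regional order. Bcl11a came to 93.3, 126 and 124 CPM per 1000 CPM of the neuronal genes in medial and 116 and 92.5 in lateral libraries, so the regions overlapped. Per 1000 CPM of radial glia genes it stayed lower in medial cortex, with 43.2, 81.6 and 95.3 against 139 and 168. Nfix came to 102, 128 and 129 CPM per 1000 CPM of the radial glia genes in medial and 121 and 119 in lateral libraries, also with overlap, and Nfic overlapped on this scale too. Per 1000 CPM of neuronal genes Nfix stayed higher in medial cortex, with 219, 198 and 168 against 101 and 65.3. Nfia and Nfib were lower in all 3 medial libraries per 1000 CPM of radial glia genes and higher per 1000 CPM of neuronal genes. Their own log2 fold changes were small (0.12 and −0.023), so these ratios mostly mirror the regional difference of the sums. Zbtb20 stayed higher in medial cortex on the radial glia scale, with 65.6, 44.8 and 33.4 against 16.2 and 24.4. It also stayed higher per 1000 CPM of neuronal genes, with 142, 69.3 and 43.5 against 13.6 and 13.4. Prox1 did not overlap on either scale, with at least 7.07 in medial and at most 1.11 in lateral libraries per 1000 CPM of radial glia genes. A few genes carry these sums, since Tubb3 gave 30.1% of the neuronal and Vim 27.9% of the radial glia reads.

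**Figure D4:**
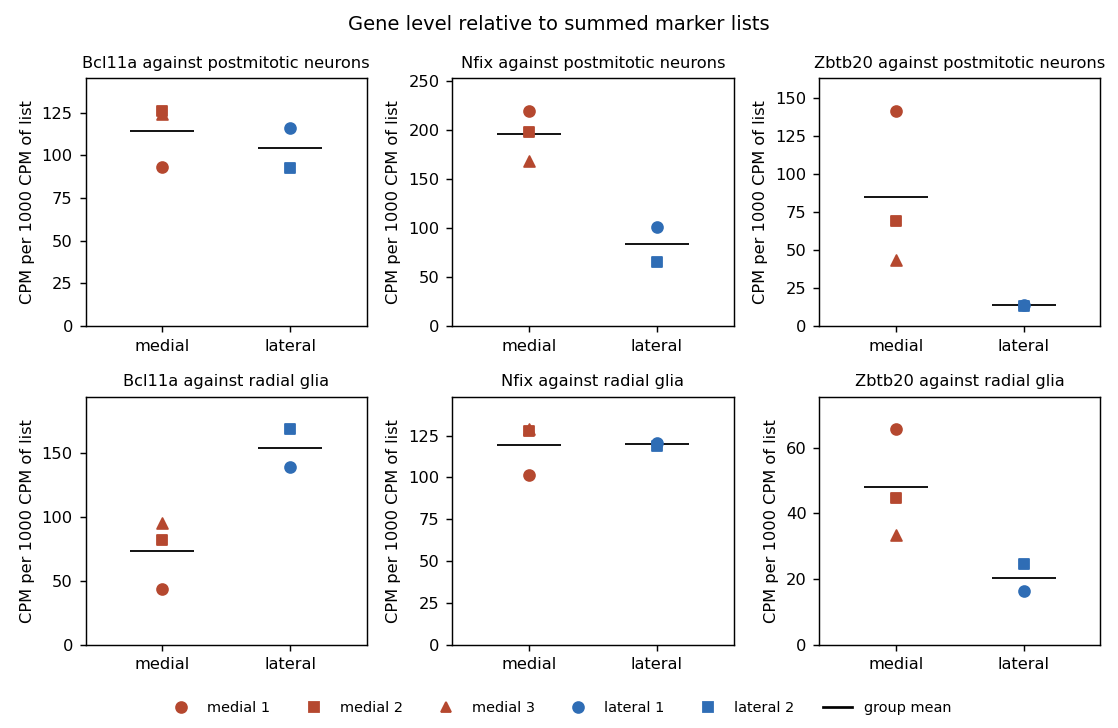
Levels of Bcl11a, Nfix and Zbtb20 per 1000 CPM summed over the neuronal (upper row) or radial glia genes (lower row), on axes from 0, by region, with the group mean as a bar. The regions overlap for Bcl11a against neuronal genes and for Nfix against radial glia genes, and do not overlap for Zbtb20 on either scale.

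Other cells that can hold Prox1 were followed by their own markers. Of 12 genes of GABAergic neurons 0 were higher in medial cortex, where Prox1 was high, and 7 were lower. Among all genes tested, 4.62% were higher and 5.1% lower. Gad1, which makes GABA, had between 0.280 and 1.67 CPM in medial and 8.86 and 11.6 CPM in lateral libraries, and its log2 fold change of −3.44 became −4.33 without medial library 3. The summed list ranged from 56.7 to 86.4 CPM in medial and from 134 to 154 CPM in lateral libraries. The lymphatic receptor gene Lyve1 had 27 reads in all 5 libraries together. Of 7 tested endothelial genes, Pdpn was higher in medial cortex (log2 fold change 1.06) and Cdh5 lower (−0.58). Without medial library 1, 3 genes were lower. All tested genes of the list except Pdpn had negative log2 fold changes, from −0.64 to −0.19. The list summed to between 116 and 158 CPM in medial and between 123 and 132 CPM in lateral libraries. Of this sum Pdpn alone gave 71.2, 47.9 and 41.7 CPM in medial and 27.6 and 23.7 CPM in lateral libraries. Genes of the thalamus and prethalamus summed to 25.5, 11.4 and 11.7 CPM in medial and 8.47 and 6.93 CPM in lateral libraries, so the sum was highest in medial library 1, where Prox1 was highest. Olig2 had 16.2 CPM there and at most 1.82 CPM elsewhere, so it gave most of the sum in that library. Of the 39 reads of Olig3, 29 were in medial library 1. Tcf7l2, a thalamic gene named after its value was seen, did not follow this order. It had 4.82, 7.03 and 6.90 CPM in medial and 5.96 and 4.62 CPM in lateral libraries (log2 fold change 0.24, adjusted p = 0.518 in edgeR). The thalamic genes Gbx2 and Sox14 had 6 and 3 reads in all 5 libraries. Of the 4 tested genes, with a median log2 fold change of 1.68, Lhx1, which Cajal-Retzius cells also express, was higher (3.02) and 0 were lower. Barhl2 was at least 0.729 CPM in medial and at most 0.483 CPM in lateral libraries (adjusted p = 0.0711 in edgeR). The part of such cells in the Prox1 values was not tested.

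Genes of hippocampal and dentate development moved with Prox1 and Zbtb20 toward medial cortex. Of 18 listed genes, 12 were higher and 2 lower, against 4.62% and 5.1% of all genes, with a median log2 fold change of 1.49. Lef1, the Wnt effector that the dentate gyrus requires, was 2.04 higher on the log2 scale (SE 0.19, adjusted p = 0.0238 in edgeR). The factor Lhx5 (2.06) and the semaphorin receptor Nrp2 (1.35) were higher too. Cxcl12, the chemokine that guides dentate and Cajal-Retzius cells, was lower (−2.40). Without medial library 3 the counts were 7 higher and 1 lower. Earlier results of these data already showed this direction for part of the list. Cajal-Retzius genes, 7 of 7 tested higher, summed to between 521 and 626 CPM in medial and between 163 and 200 CPM in lateral libraries, and their part in the Prox1 and Zbtb20 values was not tested. Per 1000 CPM of that list, of which Reln gave 87.3% of the reads, Zbtb20 overlapped between regions, while Prox1 was higher in all 3 medial libraries.

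Genes reported as repressed by Zbtb20 in hippocampal field CA1 were more often lower than higher in medial cortex. Of 11, 6 were lower, 1 higher and 4 not called, with a median log2 fold change of −1.10. Of all genes, 5.1% were lower and 4.62% higher. The upper-layer gene Cux2 (−2.43) and Sox5, of early-born projection neurons (−1.84), were lower, while Zfpm2, a corticothalamic gene, was higher (0.79). These are also neuronal genes, and the neuronal list above was lower in the same libraries. The part of Zbtb20 in these values was not tested. Without medial library 3 the list had 3 lower genes and 0 higher.

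Genes linked to Bcl11a went both ways. Of 10, 2 were higher and 3 lower in medial cortex, against 4.62% and 5.1% of all genes, with a median log2 fold change of −0.49. Its paralogue Bcl11b, a factor of subcerebral projection neurons, had 118, 280 and 363 CPM in medial and 568 and 611 CPM in lateral libraries, in the same order of libraries as Bcl11a. Its log2 fold change was −1.22 (SE 0.42, adjusted p = 0.111 in edgeR), so it did not pass either, and its naming followed a look at its values. Frzb, a secreted Wnt antagonist, was higher (2.08, and 2.68 without lateral library 1), as was the adhesion gene Flrt3 (0.99), and Flrt2 was lower (−0.86). Sema3c, reported as repressed by Bcl11a in migrating neurons and named after its value was seen, differed by 0.18 on the log2 scale (SE 0.25, adjusted p = 0.666 in edgeR). Tbr1, a factor of early-born neurons that was lower too (−1.41), is also on the Zbtb20 list. The counts were 3 higher and 5 lower without medial library 1, and 1 and 1 without medial library 3.

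Of 15 tested genes linked to NFI factors 2 were higher and 1 lower, with a median log2 fold change of 0.55. Among all genes tested, 4.62% were higher and 5.1% lower, so counts this small on a short list say little about NFI targets. Hes1, a Notch effector that NFI factors repress, was higher in medial cortex (1.05, SE 0.18, adjusted p = 0.0339 in edgeR). Ephb1, a guidance receptor, was higher (2.01), and Cntn2, an axonal adhesion molecule, lower (−1.79). Both are NFI targets in cerebellar granule neurons. The counts were 5 higher and 1 lower of 16 tested without medial library 1, and 1 and 1 without medial library 3. Gfap, a gene of mature astrocytes, had 66 reads in all 5 libraries and a difference of 2.81 on the log2 scale (SE 0.67, adjusted p = 0.0532 in edgeR). Ezh2, which Nfib represses in cortical progenitors, had 239 ± 15.7 CPM (SD, n = 3) against 237 ± 0.769 (SD, n = 2). Gfap and Ezh2 are named after their values were seen.

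**Figure D5:**
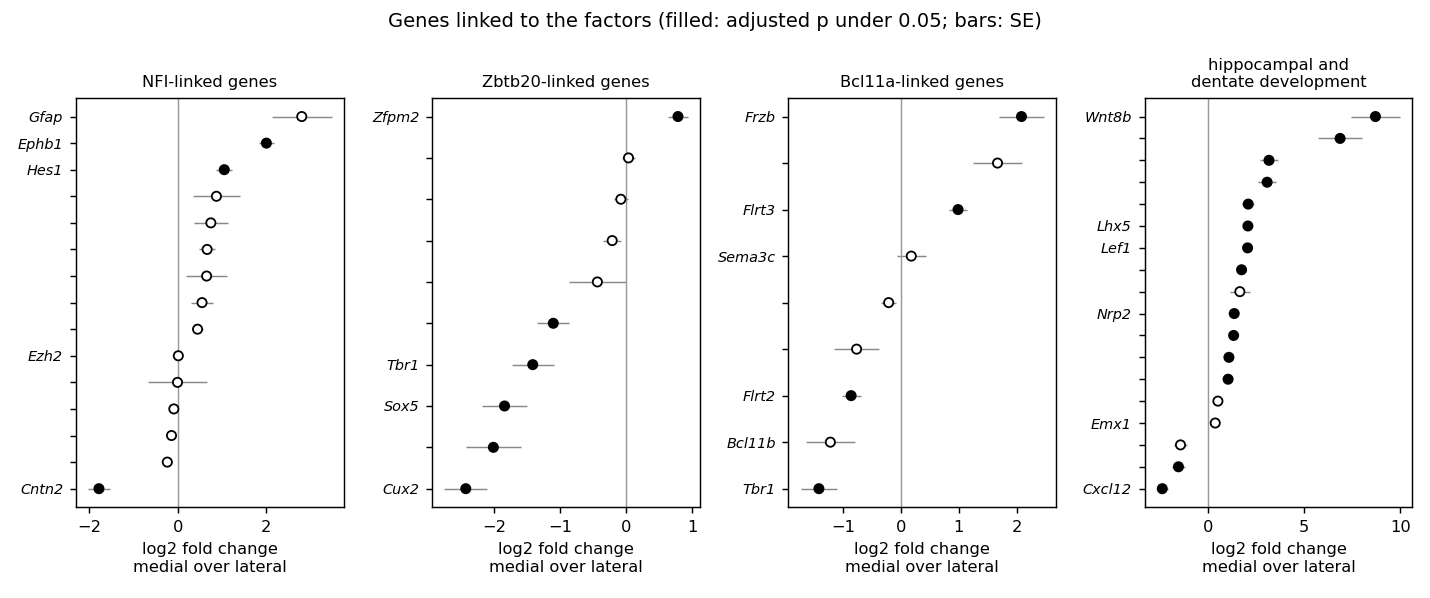
Log2 fold change, medial over lateral, of tested genes in 4 lists (NFI-linked, Zbtb20-linked, Bcl11a-linked, hippocampal and dentate development), with the SE as a bar; filled circles passed an adjusted p of 0.05. Genes described in the text carry their names, and genes that are not reported here are left out. In the hippocampal list 12 of 18 genes were called higher, and Cux2 (−2.43) has the lowest value drawn in the Zbtb20-linked list.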

How the data were processed

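RNA sequencing of 3 medial and 2 lateral cortex libraries was analysed. The deposited files hold raw counts, whole numbers of reads per gene symbol, which the authors did not normalise. The submitters' processing notes name mm9, BWA, STAR and HTSeq, and the labels' protocols a polyA unstranded library. Reads in the 5 classes that HTSeq assigned to no gene, between 23.1% and 28.7% of a file, were left out. Counts were fitted with edgeR 4.0.16 in R 4.3.3 (TMM, filterByExpr with a minimum count of 10, quasi-likelihood test in its current form, group as the only term), with Benjamini-Hochberg adjustment over 16229 genes and a threshold of 0.05. The SE is the log2 fold change over the root of F. A floor of 3 reads is between 0.0448 and 0.109 CPM, and floors cover counting error only. On counts simulated for this comparison with 16001 genes, edgeR called 42 of 98 genes changed by 1 on the log2 scale, 88 of 99 changed by 2 and 16 of 15804 unchanged ones. Far fewer genes were changed there than the 1577 called in the data, so these shares may differ from those in the data.

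The members and lists were chosen with earlier results of these data known. The text names all 7 members and Emx1. Each of 15 lists gives at most 4 called genes, those of smallest adjusted p; a list with none called gives at most 2, by mean CPM. It also takes the 3 genes most like each member. Some genes that this rule takes are not reported here. Others are marked as named after their values were seen, except those given as cell type checks (Wnt8b, Reln, Tubb3, Vim, Lyve1, Gbx2, Sox14, Olig2, Olig3, Barhl2, Insm1, Sstr2, Btg2), which were also chosen that way. Libraries were distinct: the chi-square between any 2 was at least 23.8 per gene, where sampling noise gives about 1. Alternatives were other scalings, DESeq2 1.42.0, limma-voom in limma 3.58.1, the older edgeR test, other filters, thinning, blocks and leaving out each library. Promoters came from RefSeq (GRCm38.p6) and exon lengths from GENCODE M21.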

Additional observations from a re-analysis of the deposited data

How the results depend on the processing

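Over 21 alternatives, 5 of them (DESeq2 without each library) added after seeing the data, Nfia, Nfic, Nfix, Zbtb20, Bcl11a and Prox1 kept their direction in all 21. Nfib did not: its log2 fold change of −0.023 became 0.0037 with upper-quartile scaling, 0.051 with library size alone, 0.0083 with a replicate block and without medial library 3, 0.041 without lateral library 2 against −0.090 without lateral library 1, and 0.00067 and 0.025 in DESeq2 without medial library 3 and without lateral library 2. Prox1 passed in 18, Zbtb20 and Nfic in 16 each, Nfix in 14 and Bcl11a in 3 of the 21. Genes called numbered 3550 with DESeq2, against 1577, and ranged from 0 to 2164 in edgeR and from 695 to 3076 in DESeq2 (2975 without medial library 1) when 1 library was left out. Members called ranged from 0 to 4 in edgeR and from 2 to 5 in DESeq2. Leaving out 1 library moved the difference in share of NFI reads between 0.158 and 1.04 percentage points for Nfia, −6.42 and −3.62 for Nfib, 0.340 and 0.484 for Nfic and 2.88 and 5.44 for Nfix.

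With the replicate number as a block, 1 member (Prox1) and 1076 genes were called; Zbtb20 had an adjusted p of 0.0519, Nfic 0.0809 and Nfix 0.0965 by edgeR. The numbers share no stated source, and deviations of same-numbered libraries correlated at 0.027 and −0.38 across genes. Libraries that share a tag in the deposited names, whose meaning the labels do not give, correlated at 0.38 and 0.38. With 2 lateral libraries the deviations of the lateral pair mirror each other. The −0.38 and a 0.38, both of medial library 2, are thus the same value with its sign turned. These correlations are not independent and do not decide between the pairings. A block by that tag called 5361 genes and 5 members, adding Bcl11a as lower (−0.33, adjusted p = 0.00468). The cause of these changes was not tested. Every member had at least 89 reads in each library, above the floor of 3.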

Other observations

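For each member the 3 genes with the closest profile were taken from 10282 genes of at least 5 CPM, by the root-mean-square difference of mean-centred log2 CPM over the 5 libraries, as a description. Closest to Prox1 were the zinc-finger gene Zic1 (0.23), the thyroid hormone binding protein gene Crym (0.30) and the long noncoding RNA Rmst (0.31). Zic1 had 241, 134 and 115 CPM in medial and 10.9 and 6.65 CPM in lateral libraries. Crym lay between 9.32 and 21.3 CPM in medial libraries, with 1.37 and 0.464 CPM in lateral ones. Both were highest in medial library 1, as Prox1 was. Closest to Zbtb20 were the FGF feedback inhibitor Spry1 (0.15), the protease inhibitor gene Serpine2 (0.16) and Lhfpl2 (0.16), of which Spry1 was called higher (log2 fold change 2.07). Among the closest to Bcl11a were Rasgef1b (0.039) and the noncoding RNA 7SK (0.056), with log2 fold changes of −0.56 and −0.52 (adjusted p = 0.200 and 0.416 in edgeR). Nfic was closest to Nedd9 (0.022), Fhl1 (0.032) and Spsb1 (0.034), and Nfix to Slc12a7 (0.022), Repin1 (0.024) and Aif1l (0.024), and each of these 6 was called higher. Nfia was closest to Utp14b (0.021), Gnb5 (0.021) and Csnk2a2 (0.023), and Nfib to Klhdc10 (0.0062), Nsf (0.014) and Zfp369 (0.016), all with nearly flat profiles. Without medial library 1, 0 of the 3 closest genes of Zbtb20 and of Bcl11a were still among the closest, 2 of 3 for Prox1 and 1 of 3 for each NFI gene. With a minimum of 1 CPM, 0 remained for Zbtb20 and 1 for Prox1. Among the members themselves Nfia and Nfib were the closest pair (0.11), then Nfic and Nfix (0.15), and Bcl11a and Prox1 the most distant (2.51).

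Calls in the remaining marker lists are given beside a share of 9.72% called among all genes tested. Of 7 tested choroid plexus genes, Otx2 (log2 fold change 5.24, 4.29 without medial library 1 and 5.88 without lateral library 2) and Foxj1 (0.68) were higher. Of 6 tested glial genes 0 were called, with Aldoc at 0.30 and Pdgfra at 1.01, the latter −0.67 without medial library 1, where 2 of the list were called higher. Of 7 genes of microglia and blood, the embryonic globin Hbb-y was lower (−0.62). Of 6 genes of cortical identity, Tbr1, a factor of early-born neurons, was lower (−1.41), and 3 were lower without medial library 1.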
